A study of Mus musculus with 13 samples.

Results

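Interferon response genes are the receptors, transcription factors, sensors and effector proteins through which cells answer interferons, the cytokines that signal infection. The set described here holds 46 named genes, chosen by symbol, and all 46 of them were found among the 23418 genes of the deposited count table. All 46 also passed the filter on low counts, which kept 15412 genes. The set was read in 13 mouse bulk RNA sequencing libraries, from skeletal muscle FAPs (4 libraries, numbered 2 to 5), lung FAPs (5 libraries, numbered 1 to 5) and MEFs (4 libraries, numbered 1 to 4). FAP is the field's abbreviation for fibro/adipogenic progenitor, a stromal cell that lies between muscle fibres, and MEF stands for mouse embryonic fibroblast; the labels give the abbreviations alone. The labels name no strain, genotype, age, sex or treatment, and no sort by which FAPs were taken, for any of these groups. They do not say that libraries of a group come from separate animals or cultures, so a p-value here reads only the scatter of these libraries, part of which may be technical.

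Type I interferons bind the receptor pair IFNAR1 and IFNAR2, and interferon gamma binds IFNGR1 and IFNGR2. Receptor-bound JAK kinases then activate transcription factors: a complex that holds STAT2 and IRF9 binds the interferon-stimulated response element, and interferon gamma acts through the gamma-activated site. The genes switched on in this way encode proteins that block viral translation, cut viral RNA, guard membranes, disrupt pathogen vacuoles and load antigen peptides, and stromal cells keep many of them at a low level without infection.

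Total counts ran from 28636183 to 44699463 per library. Levels are CPM, a library's counts set against its total, scaled by the trimmed mean of M values, and 3 counts over a whole group correspond to 0.022, 0.018 and 0.0166 CPM in muscle FAPs, lung FAPs and MEFs. The FAP surface genes Pdgfra, Ly6a and Cd34 summed to 3614 to 3915 CPM (muscle FAPs), 2591 to 4066 (lung) and 113 to 159 (MEFs). The 15 leukocyte markers summed to 12.5 to 13.4 CPM in muscle, 45.2 to 683 in lung (highest in lung FAP 3) and 188 to 636 in MEFs (lowest in MEF 3). Most of the sum in lung FAP 3 was 1 gene, Lyz2, at 615 CPM beside 5.15 to 7.45 in the other lung FAPs. MEFs held 67.6 to 322 CPM of Lyz2. The T cell gene Cd3e and the natural killer cell gene Nkg7 were at 0 in all muscle FAPs and MEFs. Endothelial markers were highest in lung FAP 2, with a sum of 573 CPM over 6 genes, and lung epithelial markers in lung FAP 3, with 7804 CPM over 6 genes. Members with near-identical neighbours (the Ifit, Oas, Gbp and Ifitm families) carry the uncertainty of how shared reads were counted. These are bulk values: fewer cells of a type and less RNA per cell cannot be told apart in such libraries.

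The response elements are shown because a part of the members shares them, while most members read lacked each of them in the bases searched. Promoters from RefSeq on GRCm38.p6, the build called mm10 in the submitters' processing notes, were found for 38 of 46 members. In the 250 bases before the transcription start, GAAA followed after any 2 bases by a further GAAA, on either strand, a core of the interferon-stimulated response element, occurred in 15 of 38 members (39.5%) and in 3.46% of the 27025 genes of the promoter table. The letters TTCNNNGAA, the core of a gamma-activated site, read the same on both strands and occurred in 10 of 38 members (26.3%) and in 8.13% of all genes. All 6 interferon-inducible GTPase genes with a promoter held the first motif, as did 6 of 14 antiviral effectors and 2 of 4 membrane restriction factors, against 1 of 7 transcription factors and 0 of 4 receptor chains. Matches of a motif can overlap, and a match is a run of letters, not a measured binding site. The 6 sequences below end at the base before the start, are written 5′ to 3′ on the strand of the gene, and carry the matches in capitals. They lie at chr4:156200819-156200918 (Isg15, minus strand), chr19:34640769-34640888 (Ifit1, plus), chr12:26456453-26456592 (Rsad2, minus), chr3:142620563-142620662 (Gbp2, plus), chr11:58214877-58214976 (Irgm2, plus) and chr11:58199456-58199555 (Igtp, plus).
Isg15: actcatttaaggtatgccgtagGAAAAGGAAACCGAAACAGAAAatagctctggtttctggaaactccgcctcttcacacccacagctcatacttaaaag
Ifit1: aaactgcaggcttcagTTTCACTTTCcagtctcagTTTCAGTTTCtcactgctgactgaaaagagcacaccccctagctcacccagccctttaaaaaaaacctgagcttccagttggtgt
Rsad2: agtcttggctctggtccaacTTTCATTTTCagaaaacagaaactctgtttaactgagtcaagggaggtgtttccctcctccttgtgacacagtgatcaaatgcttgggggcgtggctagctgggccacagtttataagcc
Gbp2: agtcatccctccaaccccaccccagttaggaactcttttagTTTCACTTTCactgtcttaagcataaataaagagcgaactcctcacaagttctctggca
Irgm2: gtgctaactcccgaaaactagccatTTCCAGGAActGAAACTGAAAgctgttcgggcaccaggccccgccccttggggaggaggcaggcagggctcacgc
Igtp: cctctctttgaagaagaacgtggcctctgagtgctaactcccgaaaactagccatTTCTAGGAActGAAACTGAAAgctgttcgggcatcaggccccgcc
Isg15 holds 3 overlapping copies of the first motif in a row, beginning 78, 72 and 66 bases before the start. Irgm2 and Igtp, both on chromosome 11, hold both motifs side by side, beginning 75 and 64 bases before the start in Irgm2 and 45 and 34 bases before it in Igtp.

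A library of each FAP group stood above the rest of its group for these genes, and this is given first because the group means rest on it. Muscle FAP 5 held the highest level of its group for 36 of 46 members, against 30.0% of all 15412 genes tested. Lung FAP 5 did so for 30 of 46 members, against 15.0% of all genes. In muscle FAP 5, 22 members lay more than 1 log2 unit above the median of the other muscle FAPs (3.74% of all genes did), and in lung FAP 5, 12 members lay that far above the other lung FAPs (4.11% of all genes). MEF 3 was lowest of its group for 28 members, against 30.8% of all genes. The labels do not say that libraries of the same number share an animal. The leukocyte sum was not highest in either library: it spanned 12.5 to 13.4 CPM over the 4 muscle FAPs, most of it Cd14 and Cd68, and was lowest of its group in lung FAP 5. Single leukocyte genes differed. Ptprc, the pan-leukocyte surface phosphatase, was at 0 in muscle FAP 2 and 5. Highest in muscle FAP 5 were the myeloid genes Lyz2 (0.988 beside 0.320 to 0.432 CPM), Fcer1g (0.239 beside at most 0.204), Laptm5 (0.2095 beside at most 0.204) and Tyrobp (0.0299 beside at most 0.0296). Except for Lyz2, these orders rest on few reads. Cd68 was lowest in muscle FAP 5 (3.80 beside 3.83 to 5.15 CPM), and Emr1 and Siglech were at 0 there. Csf1r, Itgam, Cd14, Cx3cr1 and Cd79a were highest in another muscle FAP. Other marker lists were highest in muscle FAP 5 within its group: mesothelial markers (25.7 CPM, with 21.98 in muscle FAP 3 and 1.15 and 2.04 in the others), endothelial markers (3.17 to 11.3 CPM), pericyte and smooth muscle markers (71.6 to 82.0 CPM) and muscle fibre markers (8.16 to 12.5 CPM). Muscle fibre markers were also highest in lung FAP 5 (3.79 to 35.1 CPM over the lung FAPs), and the part of these markers in the result was not tested.

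**Figure D1:**
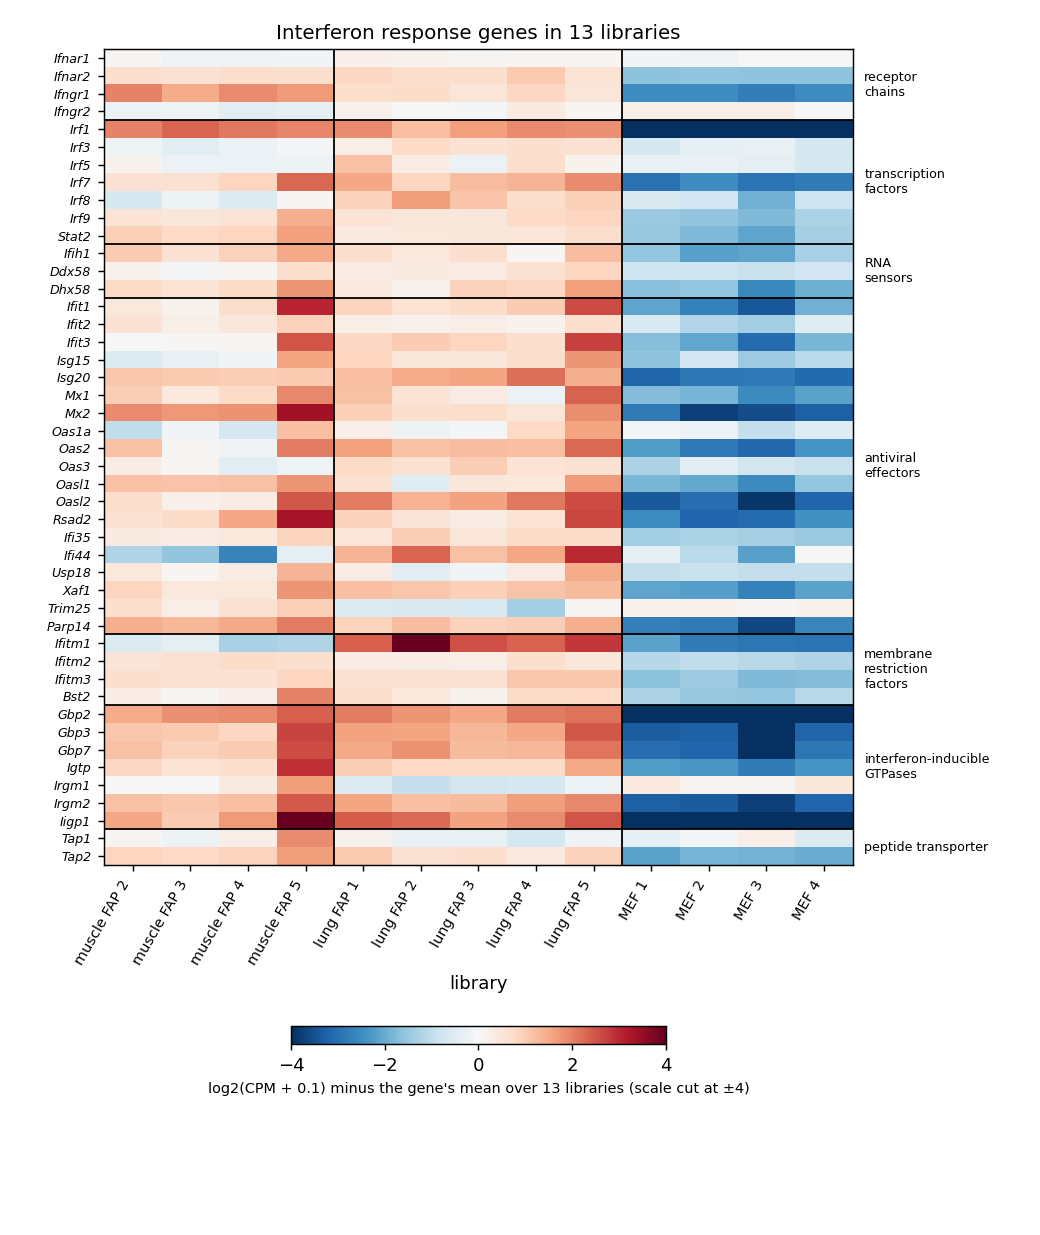
Heatmap of log2(CPM + 0.1) of the 46 members (rows, by role) in the 13 libraries (columns), each gene centred on its mean over all libraries, with the colour scale cut at 4 log2 units either way. The MEF columns are blue for most rows, and muscle FAP 5 and lung FAP 5 are the darkest red columns of their groups for many antiviral effectors and GTPases.

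The 30 members highest in lung FAP 5 were all among the 36 of 46 highest in muscle FAP 5 (83.3% of the latter). Lists this long must share members in part, and the share of all genes highest in both libraries was not computed. The sizes of the rises are given side by side, and their difference was not tested. In muscle FAP 5 the GTPases stood furthest above the rest, at a median of 3.13 times the median of the other muscle FAPs over 7 genes. Iigp1, an immunity-related GTPase that attacks pathogen vacuoles, stood at 45.5, 31.6 and 50.4 CPM in muscle FAP 2, 3 and 4 and at 433 CPM in muscle FAP 5. Igtp, another GTPase of that family, stood at 19.6 to 23.7 CPM in those 3 libraries and at 103 in muscle FAP 5. Tap1, a chain of the peptide transporter that feeds major histocompatibility class I molecules, stood at 27.5 to 38.01 CPM against 118, and Bst2 (tetherin), which holds budding virus at the membrane, at 42.0 to 49.9 against 161. In lung FAP 5 the GTPases were at a median of 1.39 times the median of the other lung FAPs, with Iigp1 at 89.6 CPM beside 47.0 to 82.4. The peptide transporter genes of lung FAP 5 lay within the range of its group.

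Antiviral effectors were high in both libraries, at median ratios of 2.54 in muscle FAP 5 and 2.27 in lung FAP 5 over 19 genes. Ifit1, which binds RNA lacking the host cap structure, stood at 12.9, 10.6, 15.8 and 80.3 CPM in muscle FAP 2 to 5, and at 18.0, 14.1, 16.2, 19.4 and 59.5 CPM in lung FAP 1 to 5. Rsad2 (viperin), an enzyme that makes a chain-terminating nucleotide, stood at 5.65 to 10.9 CPM and 36.6 in muscle FAPs, and at 4.53 to 7.02 and 23.7 in lung FAPs. Isg15, a ubiquitin-like modifier, stood at 6.26 to 8.38 CPM and 27.5 in muscle FAPs, and at 12.6 to 16.5 and 31.3 in lung FAPs. For each of these 3 genes, the library numbered 5 lay above every other library of its group. The receptor chains did not move with them: their ratios were 0.879 to 1.01 in muscle FAP 5 and 0.844 to 0.989 in lung FAP 5.

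**Figure D2:**
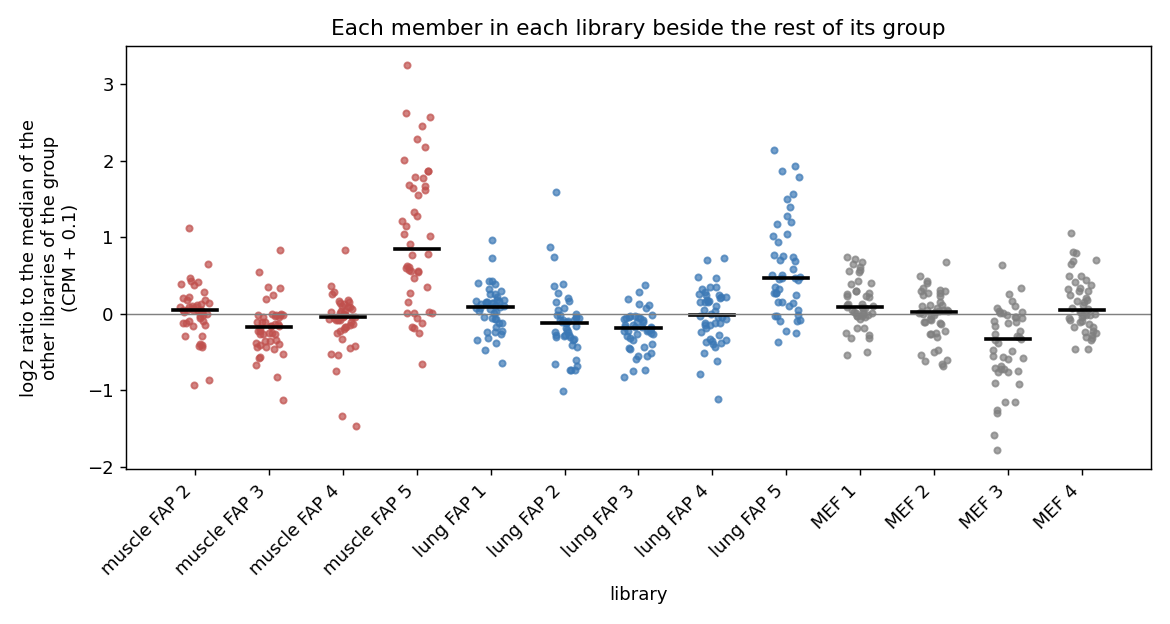
Each point is 1 of the 46 members in 1 library (x axis), placed at the log2 ratio of its CPM + 0.1 to the median of the other libraries of its group (y axis), and the bar is the median over members. Muscle FAP 5 and lung FAP 5 have the highest bars, and MEF 3 the lowest.

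The interferons themselves were nearly absent from the libraries. Over 9 ligand genes, Ifna1, Ifna2, Ifne and Ifnl3 had no read in any library, and Ifnb1 and Ifna4 had 1 read each, both in muscle FAP 3. Ifnk had 3 reads, all in muscle FAP 2. Ifng, the type II interferon, had 5 reads in muscle FAP 5, 1 in muscle FAP 2, 9 over all lung FAPs (6 of them in lung FAP 4, none in lung FAP 5) and none in MEFs. Ifnz, a type I interferon gene of mouse, had 23 reads in muscle, 5 in lung and 43 in MEF libraries. None of the 9 passed the filter on low counts, so none was tested.

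**Figure D3:**
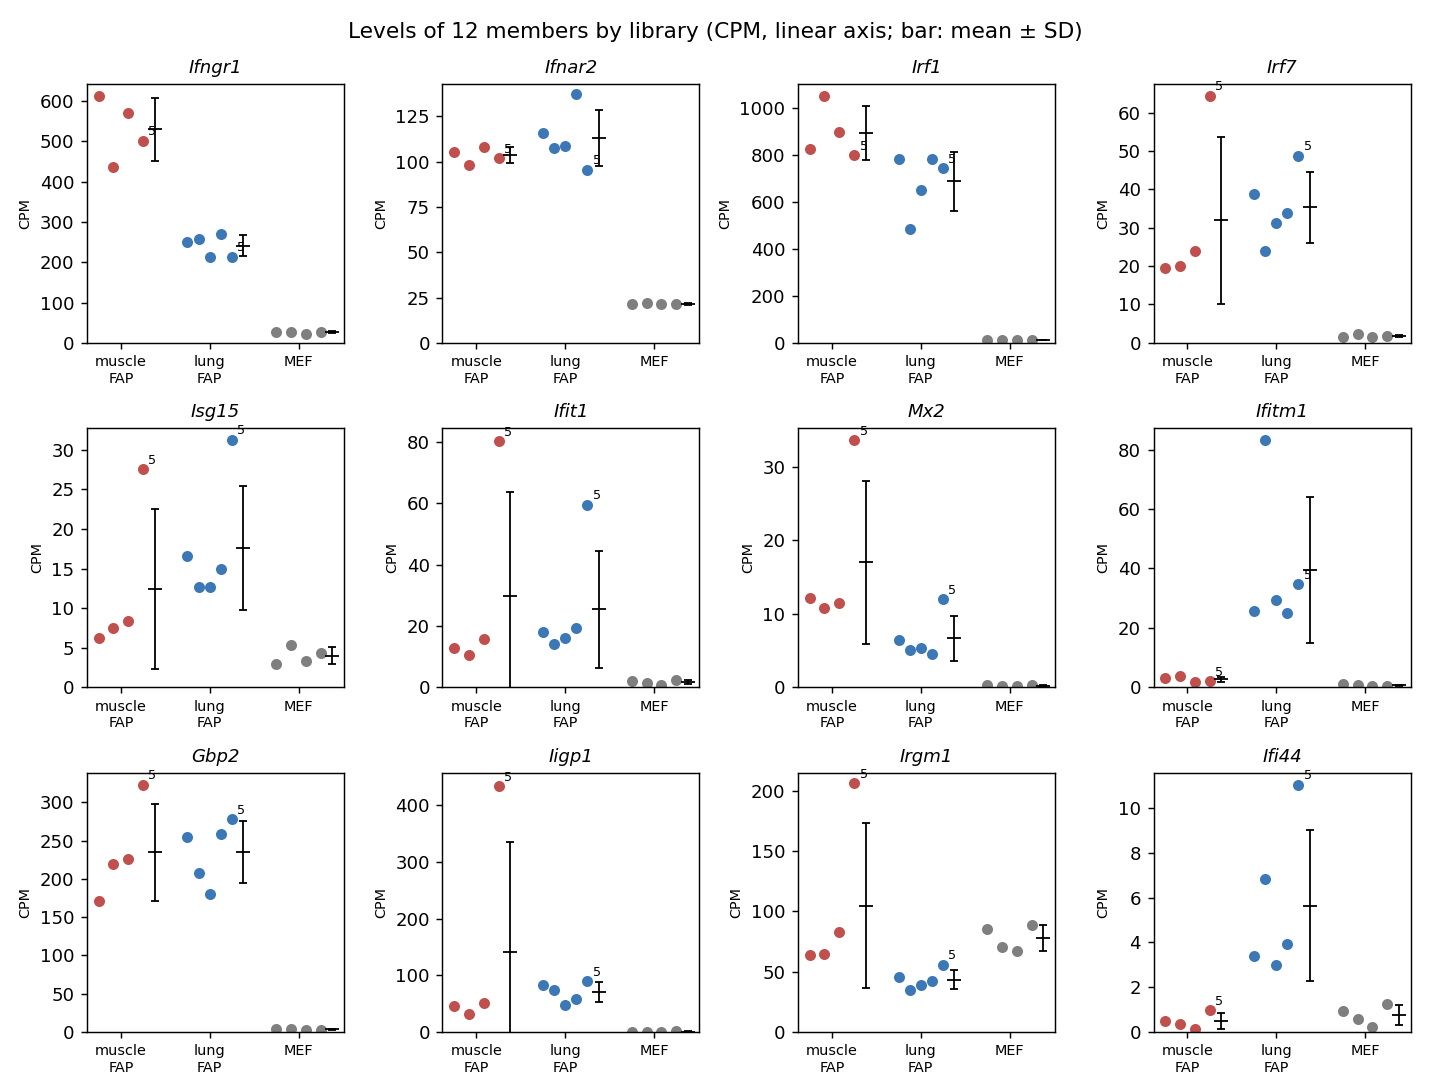
Levels of 12 members in CPM (y axes, linear, from 0) by group, 1 point per library, with the mean ± SD at the right of each group; SD bars that reach below 0 are cut there, and the libraries numbered 5 are marked. Isg15, Ifit1, Irf7 and Iigp1 show the raised point in muscle FAP 5, while Ifngr1 and Ifnar2 do not.

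The 46 members were for the most part higher in FAPs of both tissues than in MEFs. Muscle FAPs exceeded MEFs in 38 of 46 members by edgeR's test at an adjusted p under 0.05, where 36.1% of all genes tested were higher, and fell below them in 1, where 37.3% of all genes were lower. Lung FAPs exceeded MEFs in 40 members (37.8% of all genes) and fell below them in 2 (36.6% of all genes). The median log2 fold change over members was 2.79 in both comparisons, beside −0.04 and 0.02 over all genes. Libraries did not overlap in 38 members higher in muscle FAPs (35.7% of all genes), 1 member lower there (38.2%), 41 members higher in lung FAPs (32.2%) and 1 lower there (33.1%). Both comparisons use the same 4 MEF libraries and are not independent of each other. Without muscle FAP 5 and lung FAP 5, an alternative added after seeing the data, the counts were 36 higher and 1 lower in muscle, and 40 higher and 2 lower in lung. The shares of all genes were not read in that setting. Leukocyte markers ran the other way, with 10 of 12 tested lower in muscle FAPs than in MEFs, 8 of 12 lower in lung FAPs, and 1 higher in each. Markers of other cell types ran with the members in lung FAPs, where 4 of 6 endothelial, 3 of 4 mesothelial, 2 of 4 lung epithelial, 3 of 5 pericyte and smooth muscle and 4 of 5 muscle fibre markers tested were higher than in MEFs. In muscle FAPs 3 of 5 muscle fibre markers and 1 of 5 pericyte and smooth muscle markers were higher, and none of the endothelial, mesothelial and lung epithelial markers. The part of these markers in the result was not tested.

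Receptor chains were uneven. Ifngr1, the ligand-binding chain of the interferon gamma receptor, held 614, 436, 571 and 502 CPM in muscle, 249, 258, 214, 271 and 214 in lung and 27.1, 27.3, 22.6 and 26.9 in MEFs. No library of one group reached another group, and the means were 531 ± 78.4 (SD, n = 4), 241 ± 26.2 (n = 5) and 25.98 ± 2.29 (n = 4). For Ifngr1, muscle FAPs exceeded MEFs 20.4-fold (log2 fold change 4.35, SE 0.13, adjusted p = 1.26e-12), and lung FAPs exceeded MEFs 9.29-fold (3.21, SE 0.10, adjusted p = 1.31e-11). Ifnar2, a chain of the type I receptor, held 98.1 to 108 CPM in muscle, 95.6 to 137 in lung and 21.2 to 22.1 in MEFs, with rises of 2.26 (SE 0.03, adjusted p = 5.00e-11) and 2.39 (SE 0.09, adjusted p = 2.04e-11) on the log2 scale. Its neighbours on chromosome 16 (Ifnar2 91372783 to 91405589, Ifnar1 91485032 to 91510523, Ifngr2 91547059 to 91564007) had other values. Ifnar1, the other type I chain, stood at 76.0 to 87.7, 87.0 to 96.8 and 76.2 to 84.1 CPM in the 3 groups and passed in no comparison (adjusted p = 0.856 and 0.0601 against MEFs). Ifngr2, the signalling chain for interferon gamma, was the member lower in muscle FAPs than in MEFs, at 42.3 ± 3.51 against 58.4 ± 4.92 CPM (−0.47, SE 0.09, adjusted p = 0.00123), and stood at 56.4 ± 6.72 CPM in lung FAPs (adjusted p = 0.655 against MEFs).

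Among transcription factors, 4 of 7 rose in muscle FAPs (36.1% of all genes did) and 7 of 7 in lung FAPs (37.8% of all genes) against MEFs. The same shares of all genes stand beside the counts of the other roles below. Irf1, which is induced by interferon gamma and by inflammatory stimuli, had the largest difference: it held 824, 1053, 899.8 and 800.4 CPM in muscle, 782, 484, 651, 782 and 743 in lung and 10.8 to 11.6 in MEFs. The fold was 80.4 for muscle FAPs (log2 6.33, SE 0.09, adjusted p = 4.96e-13) and 61.9 for lung FAPs (5.95, SE 0.13, adjusted p = 5.01e-13). Muscle FAP 5 had the lowest Irf1 of its group. Irf7, the factor that amplifies type I interferon production, held 19.5, 19.9, 24.0 and 64.5 CPM in muscle, 23.9 to 48.8 in lung and 1.55 to 2.27 in MEFs, a log2 rise of 4.15 in muscle FAPs (SE 0.43, adjusted p = 5.21e-07; 3.53 without muscle FAP 5) and 4.29 in lung FAPs (SE 0.21, adjusted p = 3.06e-07). Stat2 and Irf9, parts of the complex that answers type I interferons, rose by 2.77 (SE 0.25, adjusted p = 6.19e-09) and 2.32 (SE 0.26, adjusted p = 1.03e-07) in muscle FAPs and by 2.16 and 2.14 in lung FAPs. Irf3, the factor that waits in the cytoplasm for RNA and DNA sensors, and Irf5, which acts downstream of Toll-like receptors, rose in lung FAPs (1.08 and 0.90) and did not pass in muscle FAPs, with values of 0.26 (adjusted p = 0.0764) and 0.27 (adjusted p = 0.332). Irf8, a factor of myeloid and B cells, held 6.99 to 11.4 CPM in muscle, 18.2 to 35.6 in lung and 2.86 to 7.37 in MEFs, and rose by 2.07 (SE 0.35, adjusted p = 5.34e-06) in lung FAPs, with 0.62 (adjusted p = 0.051) in muscle FAPs. Lung FAP 2 had the highest Irf8, and MEF 3, the MEF library with the fewest leukocyte transcripts, the lowest. The part of leukocytes in these levels was not tested.

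Sensors of viral RNA were higher in both kinds of FAP. Ifih1 (MDA5) held 39.4, 29.3, 37.1 and 56.5 CPM in muscle, 20.5 to 46.3 in lung and 4.27 to 7.89 in MEFs, without overlap with MEFs (log2 2.80, SE 0.29, adjusted p = 4.52e-07 for muscle; 2.42, SE 0.29, adjusted p = 1.36e-06 for lung). Dhx58 (LGP2), a helper of MDA5, rose by 3.03 and 2.87, and Ddx58 (RIG-I) by 1.03 and 1.32, from 20.4 ± 0.704 CPM in MEFs.

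Of 19 antiviral effectors, 17 rose in muscle FAPs against MEFs, 0 fell and 2 did not pass, and 17 rose in lung FAPs, 1 fell and 1 did not pass. Mx2, a dynamin-like restriction factor, held 12.1, 10.8, 11.4 and 33.6 CPM in muscle, 4.52 to 11.98 in lung and 0.149 to 0.364 in MEFs (log2 6.17, SE 0.45, adjusted p = 6.05e-08 and 4.81, SE 0.34, adjusted p = 4.86e-07). Oasl2, of the oligoadenylate synthetase family that senses double-stranded RNA, held 17.3 to 24.8 and 84.6 CPM in muscle, 39.8 to 93.3 in lung and 0.931 to 1.72 in MEFs (4.69, SE 0.56, adjusted p = 6.16e-06, or 3.83 without muscle FAP 5; 5.45, SE 0.28, adjusted p = 1.60e-06 in lung). Isg20, an exonuclease that degrades viral RNA, stood apart in how level it was, at 23.7 to 25.2 CPM over the 4 muscle FAPs, while lung FAPs held 27.4 to 54.5 and MEFs 1.19 to 1.54 (4.14, SE 0.09, adjusted p = 7.11e-11 and 4.73, SE 0.19, adjusted p = 1.71e-11). Parp14, an ADP-ribosyltransferase, rose by 4.56 and 4.06, and the proapoptotic Xaf1 by 3.30 and 3.46.

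Several effectors that were high in the libraries numbered 5 were also called against MEFs without them. Rsad2 rose by 5.02 in muscle FAPs (SE 0.65, adjusted p = 7.10e-05) and by 4.03 without muscle FAP 5, and by 4.33 in lung FAPs (SE 0.48, adjusted p = 1.76e-04) and 3.58 without lung FAP 5. Ifit1 rose by 4.13 (SE 0.75, adjusted p = 4.76e-04) and 3.90 (SE 0.51, adjusted p = 5.84e-04), with 2.92 and 3.28 without those libraries. Ifit3, a partner of Ifit1, rose by 3.27 and 3.60, with 2.14 and 2.96 without them. Isg15 rose by 1.64 in muscle FAPs (SE 0.52, adjusted p = 0.00546; 0.87 without muscle FAP 5, adjusted p = 0.0202) and by 2.14 in lung FAPs (SE 0.31, adjusted p = 6.83e-04). Usp18, the protease that removes ISG15 and dampens type I signalling, held 9.85 to 23.9 CPM in muscle, 6.85 to 26.3 in lung and 4.75 to 4.93 in MEFs, and rose by 1.59 (SE 0.28, adjusted p = 0.00154) and 1.42 (SE 0.33, adjusted p = 0.00248). Oas2 rose by 3.95 and 4.45 (3.34 in muscle without muscle FAP 5), Oasl1 by 3.69 and 3.05, Mx1 by 3.85 in both (3.19 in lung without lung FAP 5), Ifi35 by 1.88 and 2.07, and Ifit2 by 1.44 and 1.17. Oas3 rose by 1.64 in lung FAPs and by 0.84 in muscle FAPs (adjusted p = 0.0289), where the call was lost in 9 of 18 alternatives, among them without muscle FAP 2 or 3 (adjusted p = 0.0953 and 0.0702), without MEF 1, 3 or 4 (adjusted p = 0.0992, 0.0525 and 0.0753), with the replicate block (adjusted p = 0.0698) and with library size only (0.27, adjusted p = 0.462). Oas1a, also highest in both libraries numbered 5, was at 0.54 (adjusted p = 0.344) and 1.05 (adjusted p = 0.0598), and without those libraries at −0.18 (adjusted p = 0.733) and 0.63 (adjusted p = 0.226). Trim25, a ubiquitin ligase that activates RIG-I, was higher in muscle FAPs than in MEFs (0.52, adjusted p = 0.0494), a call lost in 14 of 19 alternatives (0.38, adjusted p = 0.167, without muscle FAP 5) and at −0.06 with library size as the only scaling, and lower in lung FAPs (−0.65, SE 0.23, adjusted p = 0.0125). Ifi44, a GTP-binding protein of microtubular aggregates, rose in lung FAPs (2.93, SE 0.62, adjusted p = 4.69e-04) and was at −0.62 in muscle FAPs (adjusted p = 0.383; −1.21, adjusted p = 0.119, without muscle FAP 5).

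All 4 membrane restriction factors were higher in both kinds of FAP than in MEFs. Ifitm3, which blocks fusion of virus with endosomes, held 376 to 462 CPM in muscle, 377 to 535 in lung and 74.0 to 93.1 in MEFs (2.32, SE 0.10, adjusted p = 1.58e-09 and 2.45, SE 0.14, adjusted p = 6.10e-10). Ifitm2 rose by 1.73 and 1.51, and Bst2 by 2.23 (1.52 without muscle FAP 5) and 1.93. Ifitm1 rose by 2.0 (SE 0.31, adjusted p = 8.73e-04; adjusted p = 0.0742 with limma-voom) in muscle FAPs, to 2.72 ± 0.892 from 0.684 ± 0.226 CPM, and by 5.86 (SE 0.38, adjusted p = 4.35e-08) in lung FAPs.

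The GTPases held the widest gaps between FAPs and MEFs, with 6 of 7 higher in each tissue and median log2 fold changes of 5.04 and 5.07. Gbp2, a guanylate-binding protein that coats pathogen vacuoles, held 171, 219.6, 226 and 323 CPM in muscle, 180.2 to 278 in lung and 2.40 to 3.61 in MEFs, 77.2-fold (log2 6.27, SE 0.23, adjusted p = 5.24e-12) and 77.5-fold higher (6.28, SE 0.17, adjusted p = 4.13e-12). Iigp1 stood at 0.204 to 0.717 CPM in MEFs and 47.0 to 89.6 in lung FAPs, and rose by 8.31 in muscle FAPs (SE 0.91, adjusted p = 1.92e-05), by 6.57 without muscle FAP 5, and by 7.31 in lung FAPs (SE 0.37, adjusted p = 3.98e-05). Gbp3 rose by 5.19 and 5.34, Gbp7 by 5.04 and 5.07, Irgm2 by 5.01 and 4.97, and Igtp by 4.11 and 3.46; without muscle FAP 5 the muscle values of Gbp3, Gbp7 and Igtp were 4.53, 4.43 and 3.13. Irgm1, a regulator of the other immunity-related GTPases, was the exception: MEFs held 67.2 to 88.3 CPM, lung FAPs 34.5 to 55.7 (−0.85, SE 0.15, adjusted p = 0.0211) and muscle FAPs 63.5, 64.9, 83.2 and 206 (0.43, SE 0.41, adjusted p = 0.241). The Irgm1 call in lung FAPs was lost in 2 of 21 alternatives. These were without lung FAP 2 and 3 together (−0.71, adjusted p = 0.0777) and a test against a 1.5-fold change (adjusted p = 0.133). The promoter of Irgm1 also holds the GAAA pair of the response element, beginning 30 and 24 bases before the start. Tap2 rose by 3.07 (SE 0.21, adjusted p = 2.29e-09) and 2.72 (SE 0.13, adjusted p = 5.62e-09), while Tap1 was at 0.93 in muscle FAPs (SE 0.50, adjusted p = 0.0461, lost in 13 of 19 alternatives, with 0.21 and adjusted p = 0.384 without muscle FAP 5 and adjusted p = 0.111, 0.0812 and 0.124 without MEF 1, 2 or 4) and −0.08 in lung FAPs (adjusted p = 0.858).

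**Figure D4:**
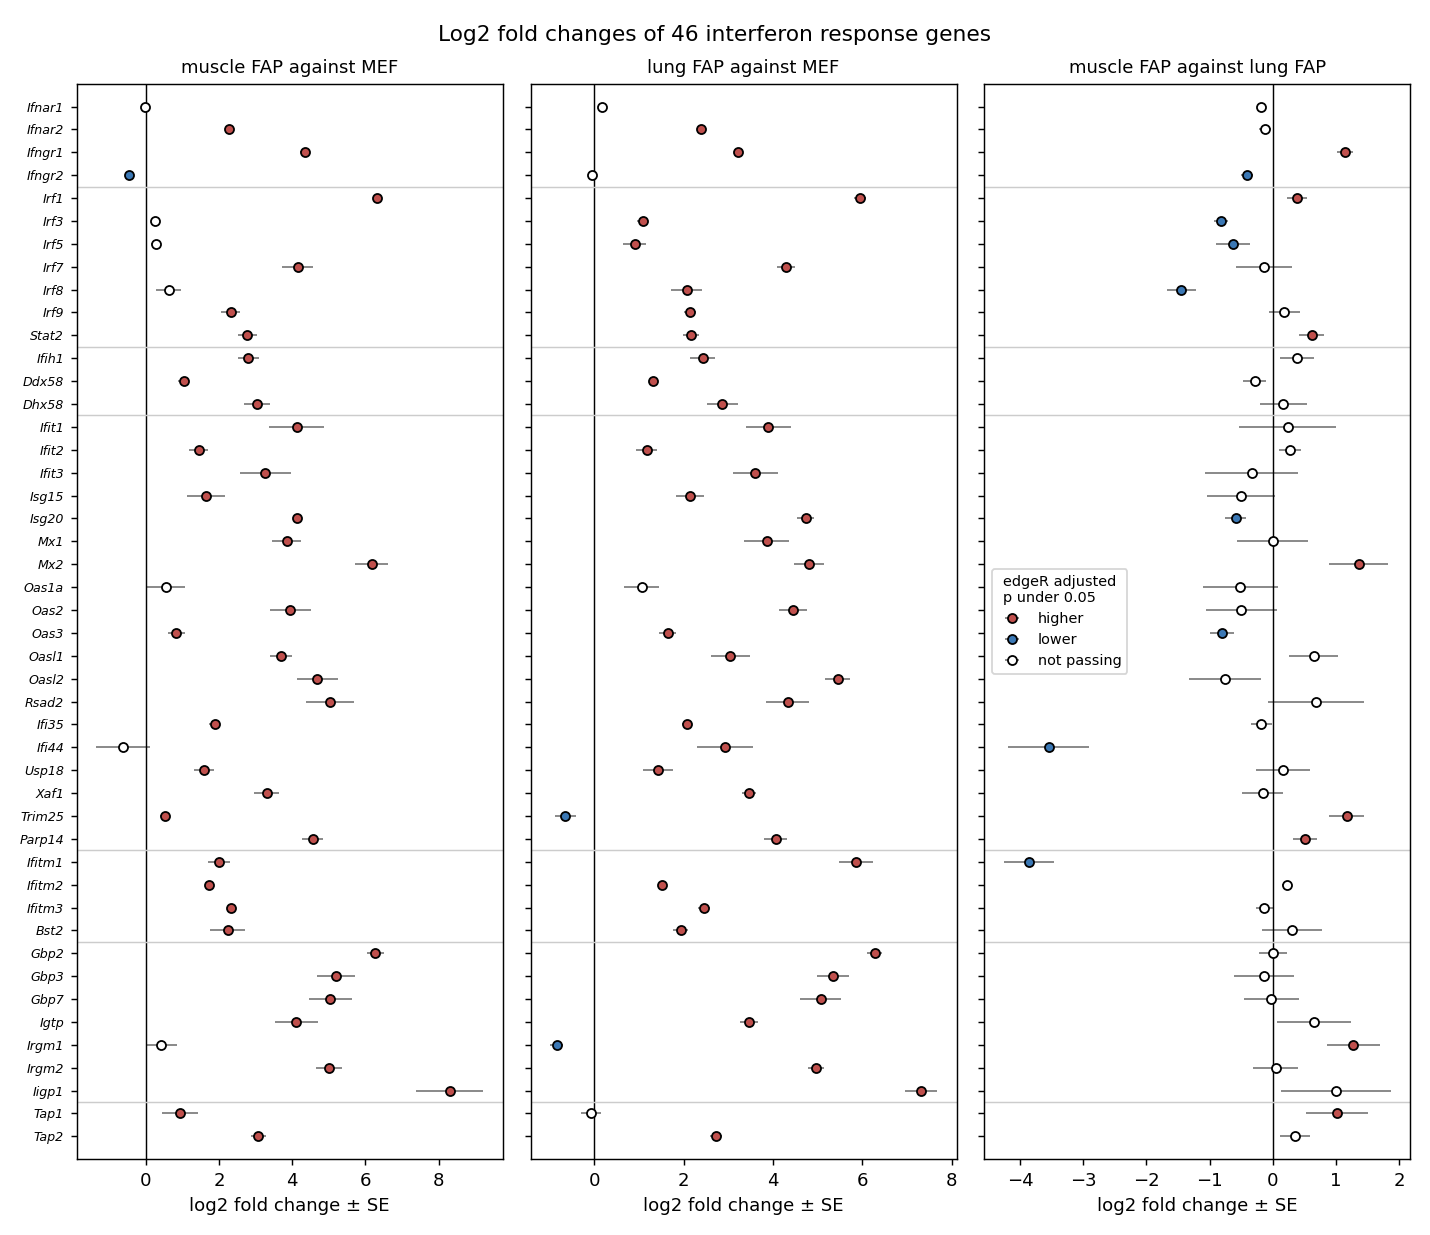
Log2 fold change ± SE (x axes, of different range) of the 46 members (rows) in the 3 comparisons, filled red where higher and blue where lower at an edgeR adjusted p under 0.05 and open where not passing. Most members lie right of 0 against MEFs, while muscle FAPs against lung FAPs has 8 red, 8 blue and 30 open points.

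Muscle FAPs and lung FAPs differed in fewer members. By the same test 8 of 46 were higher in muscle FAPs (23.2% of all genes were), 8 were lower (25.0% of all genes) and 30 did not pass, with a median log2 fold change of −0.00 beside −0.04 over all genes. Libraries did not overlap in 5 members higher in muscle FAPs (19.0% of all genes) and 7 lower (19.0% of all genes). The counts depend on muscle FAP 5: without it 6 members were higher and 17 lower, with a median of −0.37, and without both libraries numbered 5 (added after seeing the data) 6 were higher and 12 lower, with a median of −0.24. Members lower without muscle FAP 5 included Irf7, Isg15, Ifit3, Oasl2, Oas2, Gbp3, Iigp1, Xaf1, Ddx58 and Ifi35, none of which passed with it. Without lung FAP 5, Rsad2 and Oasl1 were among 9 higher members. The shares and the median of all genes were not read in these settings with libraries left out, so how far all genes moved there is not shown. With library size as the only scaling 4 members were higher and 14 lower, where the median of all genes moved to −0.44 and 18.8% of calls over all genes were higher in muscle FAPs, against 48.1% with the trimmed mean scaling. Leukocyte markers (10 of 12) and endothelial markers (6 of 6) were lower in muscle than lung FAPs, and their part in these counts was not tested.

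The members higher in muscle FAPs came from several roles. Ifngr1, whose levels are given above, was 2.20-fold higher (log2 1.14, SE 0.13, adjusted p = 2.23e-06), with every muscle FAP above every lung FAP. Trim25 stood at 63.0, 47.4, 61.0 and 77.7 CPM against 27.2, 26.5, 26.3, 15.5 and 43.2, without overlap (1.17, SE 0.28, adjusted p = 4.11e-04). Irgm1 was 2.41-fold higher (1.27, SE 0.42, adjusted p = 0.00352), and all 3 muscle FAPs other than muscle FAP 5 also lay above the 34.5 to 55.7 CPM of lung FAPs. Mx2 was 2.56-fold higher (1.35, SE 0.46, adjusted p = 0.00754), with muscle FAP 3 and 4 at 10.8 and 11.4 CPM just under the 11.98 of lung FAP 5. Stat2 stood at 81.9 to 145 CPM against 61.7 to 76.3 (0.61, SE 0.20, adjusted p = 0.0089), a call lost in 2 of 21 alternatives: library size only (0.21, adjusted p = 0.342) and the test against a 1.5-fold change (adjusted p = 0.539). Irf1 (0.38, SE 0.16, adjusted p = 0.0347), Parp14 (0.50, SE 0.19, adjusted p = 0.0392) and Tap1 (1.01, SE 0.49, adjusted p = 0.0374) passed narrowly. Parp14 was lost in 10 and Tap1 in 13 of 21 alternatives. Without muscle FAP 5 they were at 0.33 (adjusted p = 0.164) and 0.30 (adjusted p = 0.229). Parp14 was also lost without muscle FAP 4 or lung FAP 1, 3 or 4 (adjusted p = 0.0624 to 0.0822), and Tap1 without lung FAP 2, 3, 4 or 5 (adjusted p = 0.0518 to 0.0775), with limma-voom (adjusted p = 0.0969) and with the replicate block (adjusted p = 0.0652). Irf1 was lost in 8 of 21 alternatives, among them without muscle FAP 3, muscle FAP 4 or lung FAP 3 (adjusted p = 0.13, 0.071 and 0.0686). It was also lost with upper-quartile scaling (adjusted p = 0.0769) and was at −0.02 with library size as the only scaling.

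Ifitm1 and Ifi44 were the members furthest below lung FAPs. Ifitm1 stood at 3.26, 3.70, 1.90 and 2.04 CPM in muscle FAPs and 25.7, 83.1, 29.5, 24.99 and 34.6 in lung FAPs, a difference of 14.5-fold without overlap (log2 −3.86, SE 0.40, adjusted p = 4.51e-06). Its highest value lay in lung FAP 2, the library with the most endothelial transcripts. Its lowest value among lung FAPs lay in lung FAP 4, which had the next highest endothelial sum of the lung FAPs (173 CPM). The log2 fold change without lung FAP 2 was −3.38 (adjusted p = 6.76e-08), and the part of endothelial cells in the difference was not tested. Ifitm2 (0.22, adjusted p = 0.078) and Ifitm3 (−0.13, adjusted p = 0.429), which lie on either side of Ifitm1 on chromosome 7 (Ifitm2 140954837 to 140959686, Ifitm1 140967429 to 140969827, Ifitm3 141009590 to 141010744), did not pass. Ifi44 stood at 0.495, 0.355, 0.115 and 0.958 CPM against 3.41, 6.82, 2.98, 3.92 and 11.04 (−3.54, SE 0.64, adjusted p = 3.40e-04), and was highest in the library numbered 5 of both groups. Irf8 was 2.73-fold lower in muscle FAPs (−1.45, SE 0.23, adjusted p = 3.71e-04; −1.25 without lung FAP 2). In muscle FAPs, where Irf8 stood at 6.99 to 11.4 CPM, Ptprc had 0 to 0.148 and the 15 leukocyte markers summed to 12.5 to 13.4. The cell source of Irf8 was not tested. Irf3 stood at 28.0 to 35.4 CPM against 44.97 to 64.7 (−0.82, SE 0.11, adjusted p = 6.50e-05), Isg20 at 24.4 ± 0.613 against 36.7 ± 10.4 (−0.59, SE 0.17, adjusted p = 0.00773) and Ifngr2 at 38.4 to 46.3 against 49.7 to 66.8 (−0.41, SE 0.10, adjusted p = 0.00414), all without overlap. Irf5 (−0.63, SE 0.26, adjusted p = 0.0394) was lost in 10 of 21 alternatives, among them without muscle FAP 3, 4 or 5 or lung FAP 1 or 4 (adjusted p = 0.0795 to 0.11). Oas3 (−0.81, SE 0.19, adjusted p = 0.0391) was lost in 10 of 20, among them without muscle FAP 3, 4 or 5 or lung FAP 2 or 3 (adjusted p = 0.0505 to 0.121).

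The members that did not pass between both kinds of FAP included some with close means and some with wide spreads. Gbp2 was at −0.00 with an SE of 0.22 and means of 235 ± 63.5 and 236 ± 40.5 CPM. Iigp1 was at 1.0 with an SE of 0.87, and Ifit1 at 0.23 with an SE of 0.77, and in both a single library carried most of the group mean in muscle. Ifnar1 (−0.19, SE 0.06, adjusted p = 0.0592) and Ifnar2 (−0.13, SE 0.09, adjusted p = 0.296) were measured with small errors.

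Other genes of the pathway, from lists that hold none of the 46 members, were read in the same fit. Of 35 tested genes among other interferon-induced genes, 28 were higher and 1 lower in muscle FAPs than in MEFs (36.1% and 37.3% of all genes). In lung FAPs 29 were higher and 0 lower than in MEFs (37.8% and 36.6% of all genes). Between muscle and lung FAPs 5 were higher and 5 lower in muscle, 14.3% each, which lies below the 23.2% and 25.0% of all genes. Ifi205 and Ifi203, of the interferon-inducible p200 family, stood at 652 to 831 and 356 to 471 CPM in muscle FAPs, 313 to 711 and 76.9 to 206 in lung FAPs, and at most 0.436 and 0.824 in MEFs. Gbp5 stood at 39.1 to 50.0, 34.2 to 70.7 and 0.0485 to 0.212 CPM in the 3 groups. Ifi27l2a rose by 8.15 and 9.17 against MEFs and was lower in muscle than lung FAPs (−1.02, SE 0.38, adjusted p = 0.0109). Cxcl9, a chemokine induced by interferon gamma, held 25.6, 25.4, 35.2 and 146 CPM in muscle, 1.19 to 5.07 in lung and 0.041 to 0.106 in MEFs, and was higher in muscle than lung FAPs (4.49, adjusted p = 5.88e-05; 3.48 without muscle FAP 5). Gbp4 (−2.67, adjusted p = 0.00732; −4.15 without muscle FAP 5) and Oas1g (−3.34, adjusted p = 0.00459) were lower there.

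The receptor kinases differed in direction between both kinds of FAP. Jak1 and Jak2 were higher in muscle than lung FAPs (1.11, adjusted p = 5.21e-06 and 1.22, adjusted p = 3.28e-05) and Tyk2, the kinase bound to IFNAR1, was lower (−0.77, adjusted p = 2.66e-05).

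Of 11 tested sensing and adaptor genes, 6 were higher and 1 lower than in MEFs in each tissue (54.5% and 9.09%). The shares of all genes were 36.1% and 37.3% in muscle FAPs and 37.8% and 36.6% in lung FAPs. Zbp1, a sensor of Z-form nucleic acids, rose by 6.0 and 5.87 and stood at 3.90 to 6.87 and 35.5 CPM in muscle FAPs. Tlr3, the endosomal sensor of double-stranded RNA, rose by 2.72 and 2.92, and Myd88, an adaptor of Toll-like receptors, by 2.64 and 2.29. Tlr7, a sensor of single-stranded RNA in myeloid cells, was the lower gene, at 0 to 0.118 CPM in muscle, 0 to 0.358 in lung and 9.11, 4.33, 1.82 and 7.99 in MEF libraries. Its lowest MEF value lay in MEF 3, where leukocyte transcripts were also lowest, and the cell source of Tlr7 was not tested. Between both kinds of FAP, Myd88 (0.35), Tbk1 (0.36) and Traf3 (0.35) were higher in muscle FAPs (27.3% of the 11, beside 23.2% of all genes), and libraries overlapped in all 11. Without lung FAP 5, Myd88 (0.34, edgeR adjusted p = 0.076) and Tbk1 (0.32, adjusted p = 0.064) did not pass, while Traf3 did (0.44, adjusted p = 0.00947). Of 7 negative regulators, 6 were higher and 1 lower than in MEFs in each tissue (85.7% and 14.3%). All genes again stood at 36.1% and 37.3% in muscle FAPs and 37.8% and 36.6% in lung FAPs. Socs3, an inhibitor of JAK signalling, rose by 6.74 and 6.91, and the myeloid phosphatase Ptpn6 fell by 4.52 and 2.13. Socs1, the inhibitor of interferon gamma signalling, held 22.1 to 30.8 CPM in muscle, 6.19 to 11.2 in lung and 3.25 to 5.70 in MEFs, and was higher in muscle than lung FAPs (1.49, adjusted p = 1.69e-05). Irf2, a repressor that competes with IRF1, was also higher there (0.56, adjusted p = 0.00144), and Trex1, the exonuclease that clears cytosolic DNA, was at 0.13 (adjusted p = 0.7) between both kinds of FAP and rose by 1.93 and 1.80 against MEFs.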

How the data were processed

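RNA of 13 mouse libraries was sequenced, and the authors deposited whole-number read counts per gene, made with Bowtie2 2.1.0.0 and HTSeq on mm10 per the submitters' processing notes. For the annotation, the strand setting and the sort of the cells the answer is: not given in the sources used here. Groups were taken from the labels. From the counts, edgeR 4.0.16 (R 4.3.3) was run over all 13 libraries: filterByExpr kept 15412 of 23418 genes, libraries were scaled by the trimmed mean of M values, and robust quasi-likelihood tests were adjusted by Benjamini-Hochberg over all genes kept, with calls at an adjusted p under 0.05. Standard errors were taken from log2 CPM with a prior count of 2. Alternatives used DESeq2 1.42.0, limma-voom (limma 3.58.1), other scalings and filters, a replicate block, and each library left out. The script was tested on simulated data. All 46 members are named, and other pathway genes are named where they are a ligand with a read or among the up to 3 called genes of a list with the largest absolute fold change in a comparison. The members and lists were chosen with earlier results of these data known. A pathway gene that the rule also names is not reported here.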

Additional observations from a re-analysis of the deposited data

Results flagged for a closer look

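A library lay far outside the rest of its group in 37 of 138 gene-by-group series (26.8%). The rule marks about 1 in 20 by chance only if values are normally spread, and CPM need not be. It was not run over all genes, so the share of all genes flagged is not known. Genes that share a library are not independent. In 20 series the library was muscle FAP 5, at the top of its group. The transcription factors Irf7 (64.5 CPM), Irf9 (120.5) and Stat2 (145) were among them, as was the sensor Dhx58 (15.2). The antiviral effectors were Ifit1 (80.3 CPM), Ifit3 (57.6), Isg15 (27.5), Mx2 (33.6), Oasl1 (4.61), Oasl2 (84.6) and Rsad2 (36.6), with the membrane factor Bst2 at 161. The GTPases were Gbp3 (104 CPM), Gbp7 (70.7), Igtp (103), Irgm1 (206.5), Irgm2 (148) and Iigp1 (433), and both peptide transporter genes, Tap1 (118) and Tap2 (120.2), were included.

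In 10 series the library was lung FAP 5, again at the top: Stat2 (76.3 CPM), Ifit1 (59.5), Ifit2 (48.5), Ifit3 (66.7), Isg15 (31.3), Mx2 (11.98), Rsad2 (23.7), Usp18 (26.3), Gbp3 (91.1) and Igtp (38.4). The other 7 were scattered. Muscle FAP 2 was highest for Ifnar1 (87.7 CPM) and Irf5 (8.77), lung FAP 2 for Ifitm1 (83.1) and MEF 1 for Ifitm1 (1.02). MEF 3 was lowest for Ifngr1 (22.6 CPM) and Gbp3 (0.659), and MEF 4 for Ifngr2 (51.1).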

How the results depend on the processing

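Against MEFs, between 34 and 39 members were higher in muscle FAPs and between 37 and 41 in lung FAPs over all alternatives run. Of 39 members called in muscle FAPs, 28 had a value in all 19 alternatives and were called in each, 5 were lost in some, and 6 lacked a value in some and were called in the others. Of 42 in lung FAPs these were 31 (of 21 alternatives), 3 and 8, and of 16 between both kinds of FAP 7, 8 and 1. There, members higher in muscle numbered 4 with library size only, 4 in a test against a 1.5-fold change, 5 without lung FAP 2 and 3, and 5 to 9 with a library left out. Members lower numbered 14, 4 and, with a library left out, 6 to 17, and the shares of all genes were not read with a library left out. Members lower than MEFs numbered 2 (library size only) and 0 (test against 1.5-fold) in muscle FAPs, and 0 (test against 1.5-fold) and 1 (without lung FAP 2 and 3) in lung FAPs. With library size only, Irf1 between both kinds of FAP was at −0.021 (adjusted p = 0.894) and Trim25 in muscle FAPs against MEFs at −0.056 (adjusted p = 0.828). The cause of these changes was not tested beyond the scaling itself, which moved the median of all genes to −0.44, −0.62 and −0.15 in the 3 comparisons. Calls higher then made up 31.7% of all calls for muscle FAPs against MEFs, beside 49.2%. Over all genes, same-numbered libraries correlated weakly (−0.0484 to 0.0612), and all 4 muscle and lung pairs lay above 0 (0.0174 to 0.0612). Libraries of different number spanned −0.1123 to 0.0871, and −0.0738 to 0.0774 between muscle and lung. The ranges overlap and hold few pairs, so they cannot settle whether libraries are paired. The main fit used no pairing. These correlations do not read the members alone, and whether a number marks a shared animal is not in the labels. With the replicate block 8 members were higher and 10 lower between both kinds of FAP, 35 and 1 in muscle FAPs against MEFs, and 40 and 2 in lung FAPs against MEFs.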
